A study of Homo sapiens with 6 samples.

Results

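The untreated NB4 libraries are the 3 of the 6 RNA-seq libraries of this study that were made from cells left without maltonis, and all 23368 gene symbols counted in them are described here. NB4 is an established human line of acute promyelocytic leukemia, kept in medium with serum, so the 3 libraries are replicates of a single line and not of patients. The untreated cells were taken at 24 h, and the other 3 libraries, from NB4 cells given 10 µM maltonis (a synthetic hydroxypyrone made from maltol) for 24 h, are used only to see whether a split among replicates recurs. Total RNA was sequenced from stranded libraries made with a kit that removes ribosomal RNA, and the values are counts of reads per symbol. The study describes its replicates as biological.

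Acute promyelocytic leukemia is a leukemia of myeloid cells halted at the promyelocyte, the stage at which a future neutrophil fills its first (azurophil) granules with myeloperoxidase and serine proteases. The proteins of the later specific and gelatinase granules are normally made after that stage, under transcription factors such as C/EBPε. Most such leukemias carry a fusion of PML with the retinoic acid receptor RARA, and NB4 is a line with that fusion. A count on PML or on RARA does not separate reads of the fusion from those of the normal alleles.

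Replicates 1, 2 and 3 held 19385279, 38205483 and 34479562 counts, and levels are given as CPM, the count scaled by the library total. A gene with 3 counts, the detection floor used here (for counting error only), has 0.155, 0.0785 and 0.0870 CPM in these libraries. In each library, 5.30% to 5.50% of the counts fell on its 10 most abundant symbols. The 3 libraries ranked genes alike, with Pearson correlations of log2(CPM + 0.5) between 0.990 and 0.997 over 11620 genes, a description across genes that are not independent replicates. Replicates 2 and 3 were the closest pair, with 3 of 9899 symbols (mean of 5 CPM or more) apart by more than 2-fold on log2(CPM + 0.5) after TMM scaling, whereas replicate 1 stood apart from replicate 2 at 61 symbols and from replicate 3 at 121. The deposited names also carry a code that is the same for replicates 2 and 3 and another for replicate 1, with a meaning not given in the sources used here.

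By level, 2678 symbols (11.5%) were high, with a mean of 100 CPM or more, and these took 72.1% of all counts. A further 8942 symbols (38.3%) were in the middle class, from 1 to under 100 CPM, and took 27.8% of the counts. Another 2837 symbols (12.1%) were low, under 1 CPM with more than 3 counts in at least 1 library, and 2291 (9.80%) had at most 3 counts in every library and are called at the floor. The remaining 6620 symbols (28.3%) had 0 counts in all 3 libraries, 3978 of them protein-coding and 1166 microRNA genes. Where reads of a gene could be counted, this allows a level of up to 0.0326 CPM over the 92070324 counts together. The limit does not hold for symbols whose reads the libraries or the counting could not catch. The median coefficient of variation among the 3 libraries was 5.76% in the high class and 8.33% in the middle class, where counting alone would give 1.44% and 3.88%. In the low class it was 37.1% against 37.6% from counting alone, medians over the class that say nothing of single genes.

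**Figure D1:**
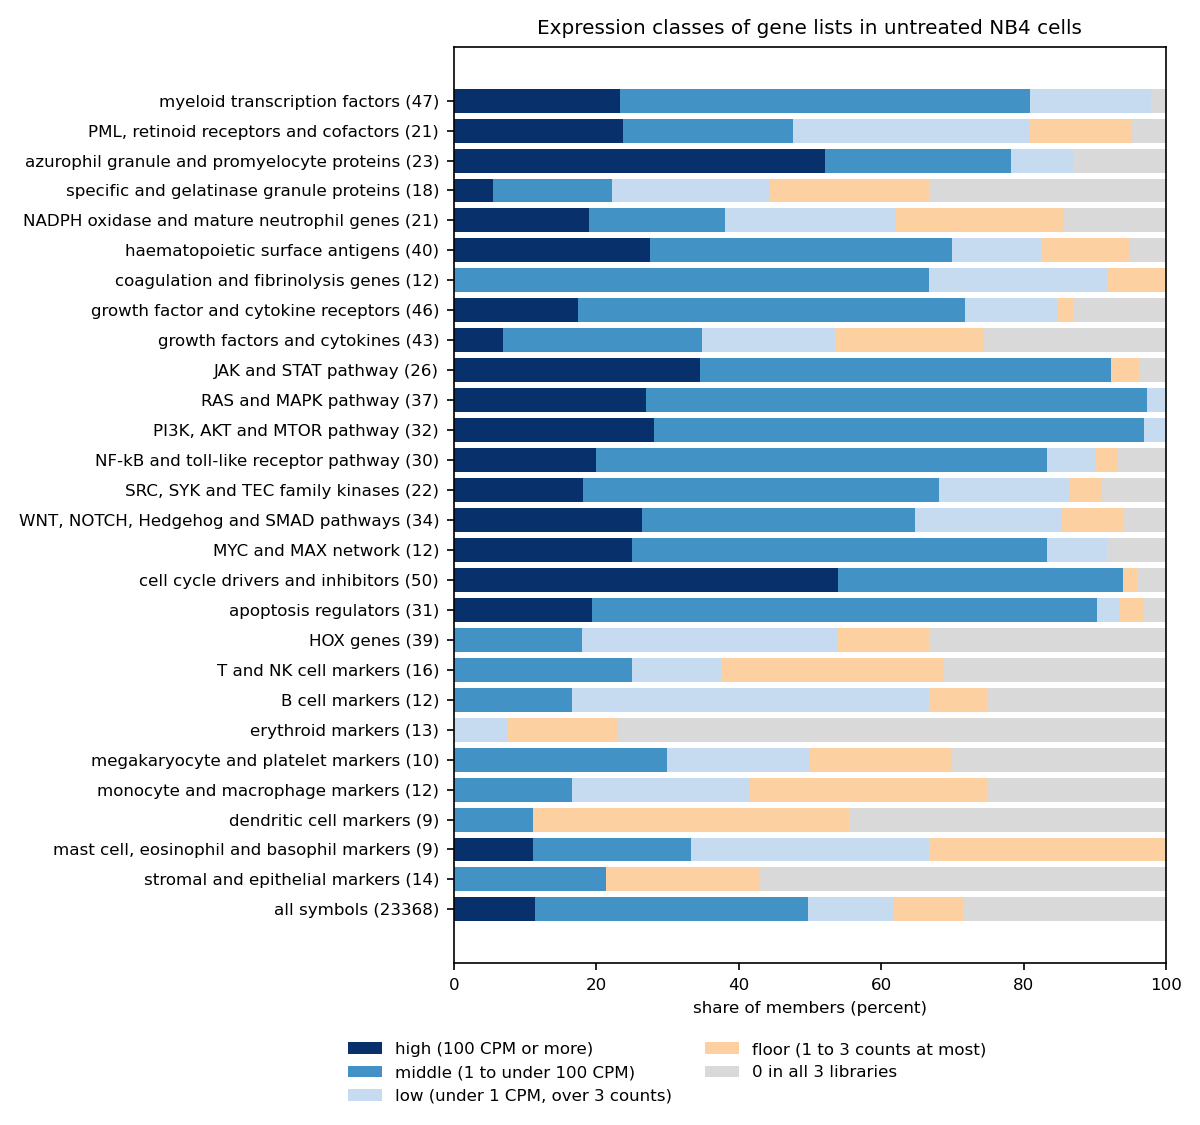
Share of the members of 27 gene lists, and of all 23368 symbols, in each class of mean level over the 3 untreated libraries. Of all symbols, 18736 were protein-coding, so that bar also holds noncoding ones. The horizontal axis is the share of members in percent, the number of members is in brackets, and the cell cycle and azurophil granule lists have the largest dark blue (high) shares, while 10 of 13 erythroid markers are at 0.

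The granule genes were split by stage. Of 23 azurophil granule and promyelocyte genes, 12 were high and 6 in the middle class, with a median of 100.2 CPM. Of 18 specific and gelatinase granule genes only MMP9 was high, 3 were in the middle class and 6 were at 0, with a median of 0.0179 CPM. The 23 include genes known best from eosinophil granules, such as RNASE2. MPO, myeloperoxidase, was the symbol with the highest count of all, at 12485, 14725 and 14826 CPM in replicates 1, 2 and 3. Per exon length it reached 4358 RPKM (CPM per kilobase), a level passed by only 2 noncoding RNAs, RMRP and RPPH1. All 3 libraries were close for MPO, and replicate 1 was the lowest.

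SRGN, serglycin, the proteoglycan core that packs granule proteins, stood at 2885, 2899 and 2789 CPM. PRG2, the major basic protein known best from eosinophil granules, stood at 2963, 2905 and 2796 CPM. The libraries were within 1.04-fold of each other for SRGN and within 1.06-fold for PRG2. Per length, SRGN reached 2365 RPKM and PRG2 1879 RPKM, placing both among the 15 highest of all symbols with a length.

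The neutrophil serine proteases differed widely from each other per exon length. PRTN3, proteinase 3, had 566, 425 and 443 CPM, AZU1, azurocidin, an inactive relative of the proteases, 46.3, 46.6 and 39.9 CPM, and CTSG, cathepsin G, 109, 106 and 99.2 CPM. PRSS57, also known as neutrophil serine protease 4, had 259, 213 and 189.7 CPM. Per length these were 466 RPKM for PRTN3, 202 for PRSS57, 118 for CTSG and 48.8 for AZU1. ELANE, neutrophil elastase, had 3, 6 and 2 counts in replicates 1, 2 and 3, at or near the floor in each. ELANE lies next to PRTN3 and AZU1 in RefSeq, in a row of genes that runs from PTBP1 and PLPPR3 (counted here as LPPR3) through AZU1, PRTN3 and ELANE to CFD and MED16. The neighbours, looked up after the ELANE counts had been seen, had 430.2 ± 21.4 CPM for PTBP1, 129 ± 25.96 for LPPR3, 27.3 ± 7.48 for CFD and 36.7 ± 2.89 for MED16 (mean ± SD, n = 3). Per length ELANE had 0.134 RPKM and its 6 neighbours between 12.6 (MED16) and 466 RPKM (PRTN3).

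The stretches just upstream of 6 azurophil granule and promyelocyte genes with a level are shown as the sequence next to these levels. That of LTF (lactoferrin, a specific granule gene with 0, 1 and 0 counts) is added, at its first listed start. No such stretch was at hand for MPO, ELANE, PRG2, SRGN, LYZ, EPX, DEFA4 and BPI, so the 6 do not stand for all granule genes. Each line gives the 150 bases before the RefSeq start of transcription (build GRCh38.p14), in the direction of the gene, and capitals mark matches to 4 short motifs searched on both strands. These are GAGGAA, the core bound by PU.1, TGTGGT, the core bound by RUNX factors, TTNCNNAA, a loose C/EBP core, and TATAAA, the TATA box.
PRTN3 (chr19:840849-840998, plus strand): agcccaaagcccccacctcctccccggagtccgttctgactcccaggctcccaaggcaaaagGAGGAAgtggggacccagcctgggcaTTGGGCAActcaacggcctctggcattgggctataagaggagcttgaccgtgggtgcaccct
AZU1 (chr19:827687-827836, plus strand): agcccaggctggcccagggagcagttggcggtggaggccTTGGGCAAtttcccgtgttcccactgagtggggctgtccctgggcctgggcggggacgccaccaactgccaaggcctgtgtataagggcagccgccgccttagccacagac
PRSS57 (chr19:695453-695602, minus strand): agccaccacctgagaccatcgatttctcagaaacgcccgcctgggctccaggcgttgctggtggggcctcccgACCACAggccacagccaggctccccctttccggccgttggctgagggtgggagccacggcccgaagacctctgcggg
CTSG (chr14:24576251-24576400, minus strand): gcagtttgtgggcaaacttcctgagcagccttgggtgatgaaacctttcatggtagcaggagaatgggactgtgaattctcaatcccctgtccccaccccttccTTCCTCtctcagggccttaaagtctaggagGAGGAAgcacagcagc
RNASE2 (chr14:20955337-20955486, plus strand): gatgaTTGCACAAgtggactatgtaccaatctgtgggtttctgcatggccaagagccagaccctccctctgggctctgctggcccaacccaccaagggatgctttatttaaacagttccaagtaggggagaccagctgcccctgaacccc
MS4A3 (chr11:60056515-60056664, plus strand): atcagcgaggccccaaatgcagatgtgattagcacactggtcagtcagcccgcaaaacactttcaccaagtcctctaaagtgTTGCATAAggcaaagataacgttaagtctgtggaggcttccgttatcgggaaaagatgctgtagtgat
LTF (chr3:46485235-46485384, minus strand): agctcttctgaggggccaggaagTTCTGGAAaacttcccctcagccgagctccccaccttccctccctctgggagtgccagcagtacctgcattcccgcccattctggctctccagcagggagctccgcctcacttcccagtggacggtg

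PRTN3 held 1 GAGGAA match starting 88 bases before the start and 1 TTNCNNAA match 62 bases before it, CTSG held GAGGAA in either orientation 46 and 16 bases before, and AZU1, RNASE2 and MS4A3 each held 1 TTNCNNAA match. LTF, at or near 0, also held 1 TTNCNNAA match, 127 bases before its start. PRSS57 held 1 TGTGGT match, on the reverse strand, 77 bases before the start. None of the 7 held the exact letters TATAAA. PRTN3 and AZU1 held the near match tataag toward the end of their stretch, which the search did not count. Over the same 150 bases of the first listed start of 27305 RefSeq symbols, GAGGAA or its reverse complement occurred in 14.7%, TGTGGT in 6.57%, TTNCNNAA in 20.4% and TATAAA in 7.05%. A match is a string of letters and was not tested for binding.

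Other genes of the azurophil granule and promyelocyte list, some of them known best from eosinophil granules, were likewise at a level. CTSC, the protease that activates the granule serine proteases, had 490.0 ± 17.99 CPM, and MS4A3, a membrane protein of granulocyte-monocyte progenitors, 173 ± 4.09 CPM. The ribonuclease genes differed, with 164 ± 20.1 CPM (217 RPKM) for RNASE2 (eosinophil-derived neurotoxin) and 8.94 ± 0.888 CPM (12.4 RPKM) for RNASE3 (eosinophil cationic protein). EPX, eosinophil peroxidase, had 35.2 ± 1.15 CPM and LYZ, lysozyme, 100.2 ± 2.04 CPM. At the low end DEFA4 had 2.01 ± 0.115 CPM, BPI had 9, 13 and 3 counts, and DEFA1, DEFA1B and DEFA3 had 0 counts in each library, although these defensins are near-identical copies whose reads the counting could have left out. Of the other specific granule genes, CAMP (cathelicidin) with 7, 5 and 5 counts was near the floor, and LCN2, MMP8, CEACAM8, OLFM4, CRISP3 and ORM1 had 0 counts. MMP9, gelatinase B, was the only high member of the specific and gelatinase granule list. It had 259, 279 and 252 CPM in replicates 1, 2 and 3, with all 3 libraries close. Another 3 of the 18 members were in the middle class.

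**Figure D2:**
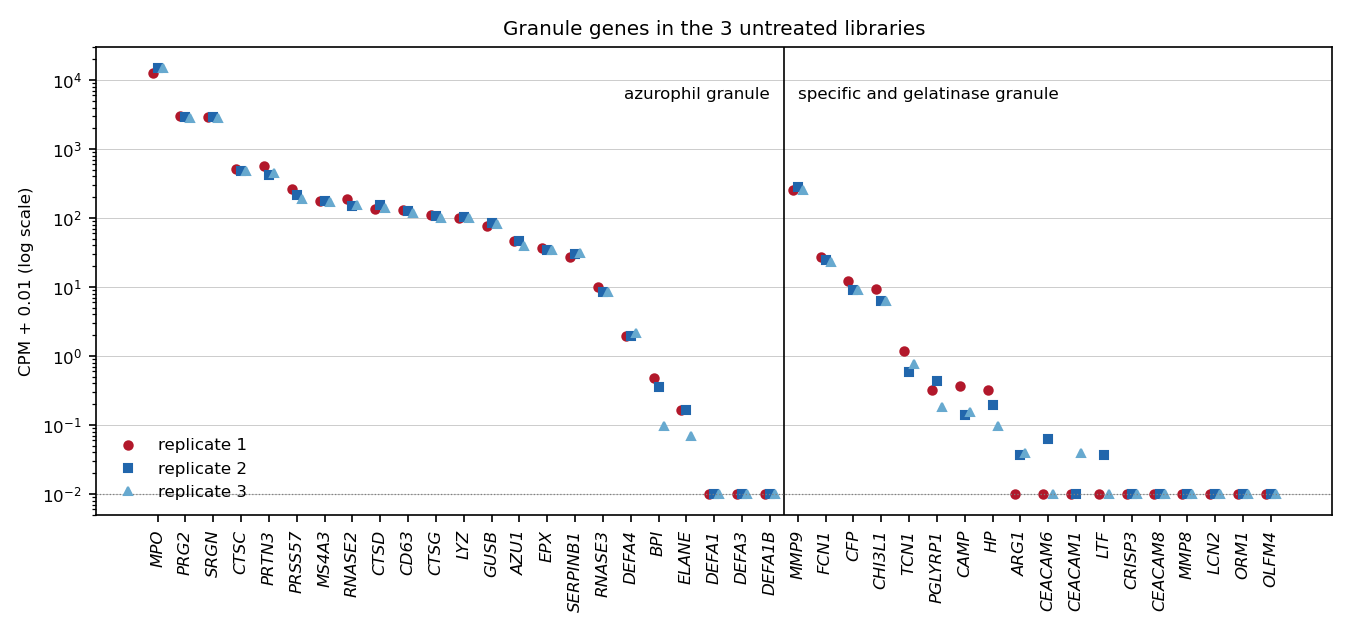
Level of each gene of the azurophil granule and promyelocyte list (left) and the specific and gelatinase granule list (right) in the 3 untreated libraries. Values are CPM plus 0.01 on a log axis, with 1 point per library. Points on the dotted line at 0.01 are 0 counts. The genes on the left run from MPO near 14000 CPM down to ELANE at under 0.2 CPM, with 3 more at 0.

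Of 21 genes of the mature neutrophil and of the NADPH oxidase, the enzyme that makes superoxide, 13 were under 1 CPM, 3 of them at 0, and 4 were high. CYBA and CYBB, which form its membrane part, had 289 ± 62.3 and 237 ± 8.27 CPM, and NCF4, a cytosolic subunit, had 63.04 ± 6.08 CPM. The other high members were RAC2, a GTPase that activates the oxidase, at 112 ± 14.03 CPM and MNDA, a nuclear protein of myeloid cells, at 178 ± 6.9996 CPM. NCF1, another cytosolic subunit and a gene with near-identical pseudogenes, was low with 19, 47 and 22 counts. The calcium-binding proteins S100A8 and S100A9, abundant in neutrophils, had 11, 11 and 7 counts and 2.02 ± 0.130 CPM respectively, S100A12 had 0 counts, and FPR1 and CXCR1 had at most 1 count in any library.

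The label of a promyelocytic leukemia line was checked on its surface antigens. CD33 had 48.2, 42.4 and 41.4 CPM and ANPEP (CD13) 475, 495 and 538 CPM, with the 3 libraries close for both. CD34, a stem cell antigen, had 0, 2 and 0 counts, HLA-DRA 0, 1 and 4 and HLA-DRB1 0, 0 and 1, all at or near the floor, and the low HLA-DR is a known trait of these leukemias. The highest antigen per length was TFRC, the transferrin receptor, at 1285 ± 17.4 CPM. SPN (CD43), ITGA4 and FUT4, which makes the CD15 antigen, had 515 ± 5.14, 509 ± 17.8 and 166 ± 2.13 CPM, KIT had 11, 14 and 21 counts and ITGAM (CD11b), a marker of later neutrophil stages, 12.96 ± 0.956 CPM.

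Among 47 myeloid transcription factors 11 were high, 27 in the middle class and 1, MAF, at 0. MYB, which keeps progenitors dividing, had 402, 446 and 431 CPM and CEBPA, a granulocyte lineage factor, 286, 236 and 209.8 CPM, with replicate 1 the highest for CEBPA. CEBPE, which encodes C/EBPε, the factor of late granule genes, had 133, 117 and 102 CPM. GFI1, a repressor needed for granulocytes, had 185 ± 21.7 CPM, SPI1, which encodes PU.1, 72.5 ± 6.42 CPM and RUNX1 78.1 ± 16.8 CPM. Of the factors of the erythroid and megakaryocytic lines, GATA1 had 3.16 ± 0.947 CPM, TAL1 12, 30 and 17 counts and GATA2 58.3 ± 3.18 CPM. The progenitor factors MEIS1 and MECOM had 18, 20 and 22 and 1, 7 and 6 counts.

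The HOX genes, which set position along the body axis and mark blood progenitors, were mostly under 1 CPM. None of 39 was high, 7 were in the middle class and 13 had 0 counts, including HOXB3, HOXB4 and HOXB5. Those with a level were HOXD13 at 72.3 ± 6.96 CPM, HOXA10 at 52.5 ± 2.56, HOXA13 at 22.2 ± 2.999 and HOXA11 at 21.3 ± 1.78. HOXA9, often high in other myeloid leukemias, had 5, 2 and 4 counts.

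The receptors for retinoic acid and the proteins that bind them split by type. RXRA, the partner of the retinoic acid receptors, had 284, 308 and 305 CPM, RARA 39.1, 43.6 and 45.9 CPM and PML 54.7, 51.7 and 55.7 CPM, with the libraries close for each. RARB, a known target of retinoic acid, had 10, 26 and 33 counts and RARG 15, 33 and 12, and CYP26A1, which degrades retinoic acid, 0, 4 and 7 counts. The corepressors and deacetylases had a level, with 281 ± 31.4 CPM for NCOR1, 189.5 ± 1.79 for HDAC1 and 105 ± 1.57 for HDAC3. ZBTB16, the partner of RARA in a rarer fusion, had 13.01 ± 0.604 CPM.

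Of 50 cell cycle genes, 27 were high, 20 in the middle class and 2 at 0, with a median of 113.6 CPM. The replicative helicase subunit MCM7 led the list per length, at 1397, 1317 and 1247 CPM, and TOP2A, topoisomerase II alpha of dividing cells, had 813, 786 and 819 CPM. Of the D-type cyclins, CCND2 had 931 ± 63.9 CPM, CCND3 476 ± 63.4 and CCND1 66.5 ± 1.63, which per length were 144, 147 and 15.4 RPKM. CDK4 and CDK6, the kinases they activate, had 314 ± 9.06 and 137 ± 6.68 CPM. Of the inhibitors, CDKN1B (p27) had 56.3 ± 2.21 CPM, CDKN1A (p21) 20.4 ± 1.56, CDKN2C 31.4 ± 2.18 and CDKN2D 16.98 ± 1.02. CDKN2A and CDKN2B had 0 counts in all 3 libraries, and so did MTAP, a housekeeping enzyme whose gene neighbours them and which was looked up after those counts had been seen. MKI67, a mark of cycling cells, differed between the libraries, at 338, 430.4 and 750.3 CPM, with replicate 3 far above the others.

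MYC, the transcription factor that drives growth and ribosome production, had 577, 669 and 655 CPM in replicates 1, 2 and 3, and 268 RPKM. Its partner MAX had 143 ± 9.07 CPM and MGA, a repressor of the same network, 291 ± 19.7 CPM. MYCN had 0 counts and MYCL (counted as MYCL1) 13, 22 and 14, so that MYC was the member of its family with a level. Telomerase reverse transcriptase, TERT, had 45.3 ± 2.59 CPM.

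The apoptosis regulators were mostly in the middle class, 22 of 31 with 6 high. Among the survival proteins MCL1 had 315 ± 24.5 CPM, BCL2 134 ± 6.92 CPM and BCL2L1 23.96 ± 1.08 CPM. MDM2, a ubiquitin ligase, had 175 ± 5.06 CPM. FASLG, the ligand of FAS, had 0, 0 and 1 counts and HRK 0.

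**Figure D3:**
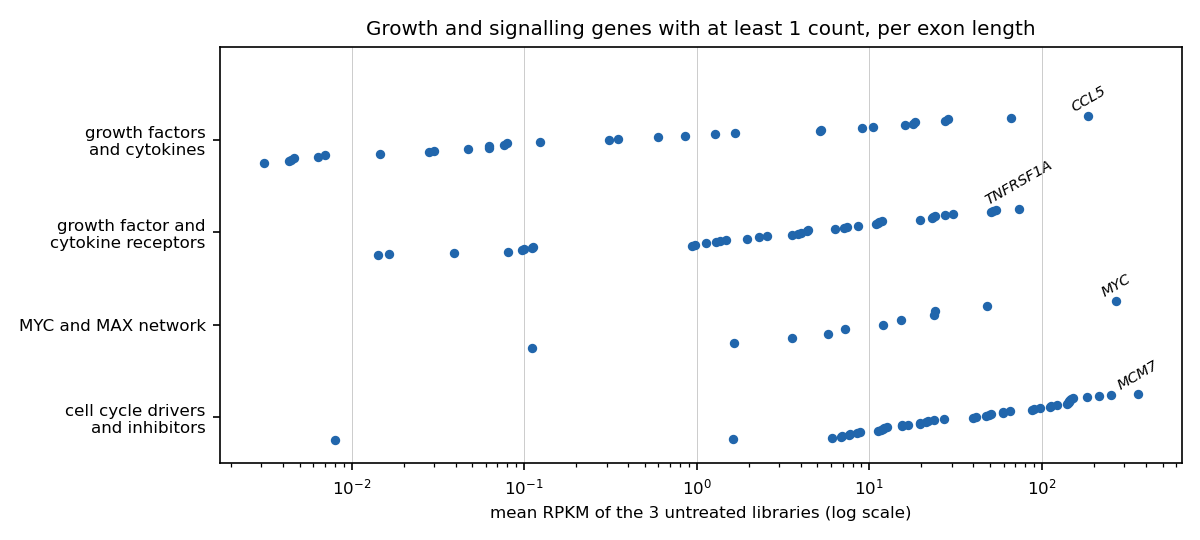
Mean RPKM over the 3 untreated libraries, on a log axis, of the members of 4 lists with at least 1 count and a known exon length, 1 point per gene and the highest gene of each list named. The highest cell cycle genes and MYC exceed 100 RPKM, and growth factors and cytokines are spread over more than 4 orders of magnitude, with CCL5 at the top.

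The cells had transcripts of some cytokines and growth factors. Of 43 such genes, 3 were high and 11 had 0 counts. CCL5, a chemokine, had 282, 266 and 259 CPM and the highest level per length of its list, 186 RPKM. HGF, the hepatocyte growth factor, had 216, 199 and 201 CPM, while its receptor MET had 0 counts in all 3 libraries. TNF had 113, 112 and 107 CPM and its receptors TNFRSF1A and TNFRSF1B 164 ± 7.03 and 43.4 ± 6.24 CPM. Interleukin 8 (counted as IL8) had 50.5, 48.004 and 47.8 CPM and VEGFA, the vascular growth factor, 67.3 ± 5.37 CPM. IL6, IFNG, CSF2 and KITLG had 0 counts.

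The receptor list had 8 high, 25 middle and 6 zero members of 46. IL17RA had 469 ± 17.5 CPM, IL6R 166 ± 6.97 CPM, CXCR4, the receptor that holds blood cells in the marrow, 104 ± 5.997 CPM and CSF3R, the receptor of granulocyte growth factor, 37.9 ± 3.45 CPM. FLT3, the receptor kinase often mutated in leukemia, had 15.3 ± 0.524 CPM, and EGFR, PDGFRA and KDR had 0 counts. IL3RA had 0 counts and CSF2RA 1, 2 and 0, but both lie in the pseudoautosomal region shared by the X and Y chromosomes, where 18 of the 22 symbols listed had 0 counts and the largest count was 8. As SLC25A6 and CD99, which most cells use, were also listed at 0, the counts of that region cannot be read as levels.

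The genes of the inner signalling chains nearly all had a level. All 37 members of the RAS and MAPK list but RASGRP4 reached 1 CPM, with 485 ± 8.90 CPM for PTPN11 (the phosphatase SHP2), 16.6 ± 0.943 for MAPK3 (ERK1) and 193 ± 5.10 for NRAS. DUSP6, a phosphatase that ERK signalling itself switches on, had 286 ± 18.7 CPM. In the PI3K list all 32 members but DEPTOR reached 1 CPM, led per length by EIF4EBP1, the translation repressor controlled by MTOR, at 172 ± 30.5 CPM, with the phosphatase INPP5D (SHIP1) at 489 ± 2.27 CPM. Of the catalytic PI3K subunits, the leukocyte forms PIK3CD and PIK3CG had 196 ± 14.1 and 137 ± 18.3 CPM and the general form PIK3CA 46.4 ± 2.12 CPM.

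Of 26 JAK and STAT genes, 9 were high and 15 in the middle class. TYK2 had 370.5, 312 and 302 CPM, JAK1 124 ± 4.79 CPM and JAK2 37.5 ± 0.568 CPM, while JAK3, the kinase of lymphocyte cytokine receptors, had 0 counts in each library, and its receptor partner IL2RG had 46.7 ± 7.90 CPM. STAT3, STAT5A and STAT5B had 169 ± 12.9, 116 ± 3.38 and 137 ± 8.89 CPM, and STAT4 1, 3 and 3 counts. The feedback inhibitors SOCS1 and SOCS3 were at 1.48 ± 0.244 and 1.88 ± 0.379 CPM.

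Of the nonreceptor kinases, SYK had 305 ± 20.8 CPM, BTK 159 ± 0.851 CPM and LYN, a SRC family kinase of myeloid cells, 64.4 ± 4.35 CPM. The lymphocyte kinases LCK and BLK had 0, 1 and 1 counts and 0 counts. In the NF-kB and toll-like receptor list IRAK1 had 489.6 ± 31.9 CPM, NFKB1 107 ± 9.16 and RELA 48.6 ± 3.38, and TLR4, the receptor for bacterial lipopolysaccharide, 39.9 ± 1.21 CPM, while TLR7 and TLR8 had 0 counts. In the WNT, NOTCH, Hedgehog and SMAD list 9 of 34 genes were high, among them CTNNB1 (beta-catenin) at 280.2 ± 3.87 CPM, NOTCH2 at 209 ± 12.1 CPM and its ligand JAG1 at 204 ± 7.33 CPM. LEF1 and SMAD1 had 0 counts.

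The coagulation genes, of interest because bleeding marks this leukemia, had no high member, with 8 of 12 in the middle class. F3, tissue factor, had 42.7, 42.1 and 42.3 CPM, and ANXA2 and S100A10, which together bind plasminogen at the cell surface, 45.1, 44.7 and 40.9 and 23.4, 39.6 and 38.7 CPM. For F3 the libraries were nearly equal, and for S100A10 replicate 1 was the lowest. ANXA2P2, a pseudogene copy of ANXA2, had a mean of 60.6 CPM against 43.6 for ANXA2. How reads were shared between them is not known, so the level and class of ANXA2 are uncertain. PLAU and PLAUR, urokinase and its receptor, had 43.6 ± 3.003 and 48.7 ± 4.46 CPM.

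Of 95 entries in 8 lists of markers of other cells, 77 were under 1 CPM, 36 of them at 0 and 24 at the floor. In bulk RNA, fewer cells of a type and less RNA per cell cannot be told apart. None of the 13 erythroid markers reached 1 CPM and 10 had 0 counts, the globin genes among them, some of which are near-identical copies. Of 16 T and NK cell markers 4 reached 1 CPM, CD3D at 43.4, 41.3 and 41.2 CPM, NKG7 at 36.1 ± 1.45, PRF1 (perforin) at 26.4 ± 0.726 and CD8A at 6.22 ± 0.329, while CD3E had 0, 0 and 1 counts, CD3G 15, 19 and 17 and CD2 2, 1 and 1. Of 12 B cell markers CD79B had 20.2 ± 4.35 CPM and CD79A 2.19 ± 0.561, whereas MS4A1 (CD20) had 0 counts. Of 9 mast cell, eosinophil and basophil markers 1 was high and 2 were in the middle class. The high one, HDC, which makes histamine, had 119, 109 and 106 CPM, whereas CPA3 had 1, 0 and 2 counts and CLC 0, 3 and 2. The eosinophil granule genes PRG2, RNASE2, RNASE3 and EPX, each with a level given above, were not among these 9. Of 14 stromal and epithelial markers KRT18 had 18.5 ± 0.839 CPM, EPCAM 16.4 ± 1.03 CPM and KRT8 2.51 ± 0.189 CPM, and 8 had 0 counts. Of 12 monocyte and macrophage markers CD68 had 12.97 ± 2.32 CPM and CSF1R 9.17 ± 3.56, and CD14 had 4, 11 and 12 counts. ITGA2B led the 10 megakaryocyte markers at 18.6 ± 1.12 CPM, with PF4 at 0, and CCR7, at 1.77 ± 0.142 CPM, was the only one of 9 dendritic cell markers at 1 CPM or more.

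Outside the lists, the symbols with the highest counts after MPO were RPPH1 and RMRP, the RNA parts of ribonucleases P and MRP, at 8227 ± 329 and 6878 ± 90.6 CPM. They were followed by ACTB (actin) at 5527 ± 321 CPM, CALR (calreticulin) at 3941 ± 279, ENO1 (enolase) at 3411 ± 272 and RPL18, a ribosomal protein, at 3181 ± 298. Per length, the histone genes HIST1H1B, HIST1H3B, HIST1H1E and HIST1H1C were also among the 15 highest, at 2469, 1913, 1846 and 1648 RPKM. Their transcripts lack a poly(A) tail, and total RNA was sequenced here. In each library, 96.9% to 97.0% of the counts fell on protein-coding genes.

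Promoters of the classes differed in composition. Among 15023 protein-coding symbols with a RefSeq promoter (250 bases before the start to 50 after it), the median number of CG dinucleotides fell from 28 in the 2270 high genes and 26 in the middle class to 17 in the low class, 12 at the floor and 6 in the 3027 genes at 0. TATAAA, within 150 bases before the start, was present in 4.10% of high, 2.82% of middle, 6.53% of low, 8.31% of floor and 14.3% of zero genes, against 6.20% of all. These are shares over genes, with no test.

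The genes that varied most among the 3 libraries were lowest in replicate 1. Spread was taken as the SD of log2(CPM + 0.5) after TMM scaling (edgeR's correction for composition) among 9899 symbols with a mean of 5 CPM or more. The median SD was 0.09 and the 95th percentile 0.33, and the 20 largest ran from 0.85 for EDC3 to 2.80 for RPS16, the next symbol having 0.85 too. All 20 were lowest in replicate 1, although over the 9899 symbols replicate 1 was lowest in 41.1% and highest in 39.9%. RPS16, a ribosomal protein, had 5.83, 155 and 199 CPM, a range of 34.1-fold, with replicate 1 far below. MYD88, the adaptor of toll-like receptors, had 1.65, 11.99 and 17.3 CPM. It was the 1 list member among the 20 (5.0%), where list members made up 3.84% of the 9899 symbols.

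Others of the 20 were RPLP1, a ribosomal stalk protein, at 85.7, 425 and 427 CPM and HNRNPH3, a splicing protein, at 25.6, 119 and 133 CPM. APEX1, a DNA repair enzyme, had 82.8, 296 and 320.4 CPM, and HSP90AA1, the inducible heat shock protein, 553, 1347 and 1779 CPM. In each of these, replicate 1 lay below both others. Replicates 2 and 3 were near each other except for HSP90AA1, which was higher in replicate 3. Counting alone would give a coefficient of variation of at most 5.88% for any of the 20, and the measured values were between 47.6% and 84.4%. Leaving out replicate 1 left none of the 20 among the largest, whereas leaving out replicate 2 or 3 left 17 and 16 of them. As the 20 were chosen on these same libraries and were all lowest in replicate 1, this adds no separate evidence on replicate 1. Genes such as RPS16, RPLP1 and RPL9 have many processed pseudogenes, so that their counts are uncertain where reads match more than 1 place.

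**Figure D4:**
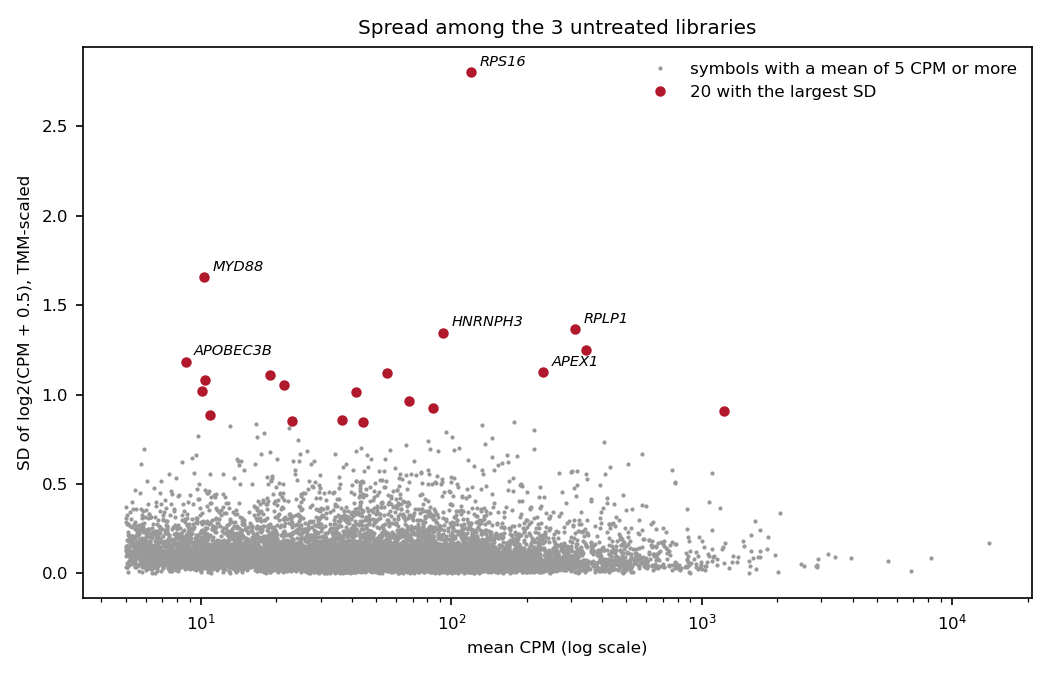
SD of log2(CPM + 0.5) among the 3 untreated libraries against mean CPM (log axis), 1 point for each of 9899 symbols. The 20 with the largest SD are in red and 6 of them are named, RPS16 standing highest at 2.80.

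**Figure D5:**
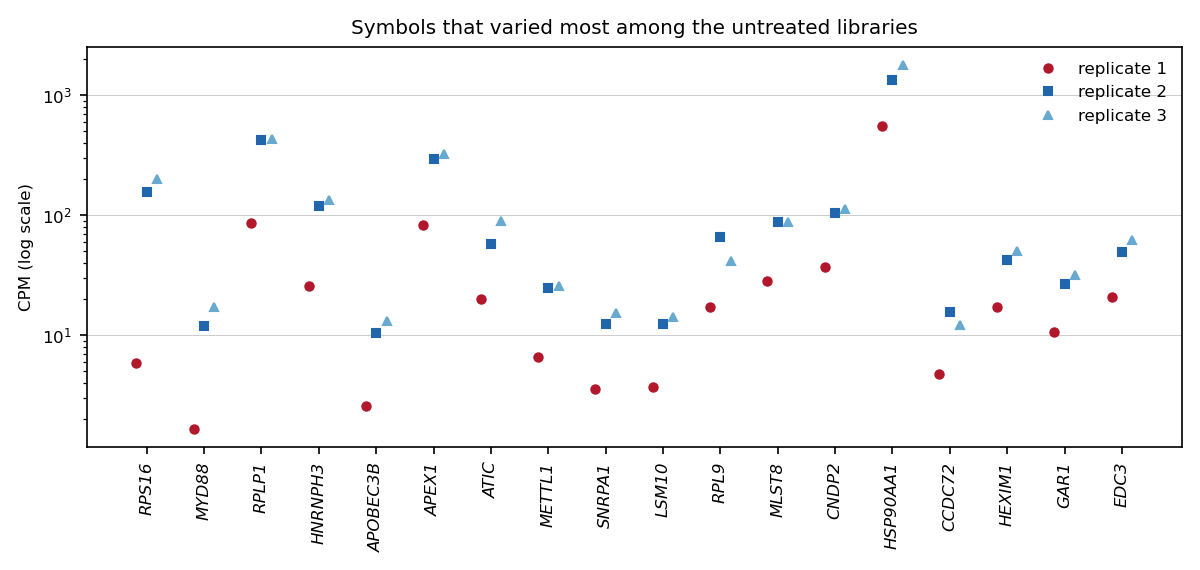
CPM on a log axis of 18 of the 20 symbols with the largest SD, 1 point per untreated library. Replicate 1 (red) lies below replicates 2 and 3 (blue) for each of the 18.

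Replicates 2 and 3 were then compared with replicate 1 by edgeR's quasi-likelihood test over 11620 genes with a mean of 1 CPM or more. With 2 libraries against 1 the fit has 1 residual degree of freedom, and it compares these libraries only, since nothing shows how a second library like replicate 1 would vary. Its calls are therefore given as a description, with no p-value for single genes. At a Benjamini-Hochberg FDR under 0.01, 136 genes were higher in replicates 2 and 3 and 1 was lower, 1.18% of those tested. The count was not firm: 17 genes, all higher, passed with DESeq2 size factors, 21 with library totals and 56 after filterByExpr, but 716 higher and 87 lower genes with no filter on low counts. Without replicate 2 there were 1307 higher and 1173 lower genes, and without replicate 3 there were 960 and 456, with the spread pooled over the remaining libraries of both groups.

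By size, the largest of these differences were in RPS27, a ribosomal protein with 1, 151 and 137 counts, for which a single count in replicate 1 fixes no fold, and in RPS16, at a log2 difference of 4.97. MYD88 followed at 3.19, RPLP1 at 2.37 and HNRNPH3 at 2.35. The gene lower in replicates 2 and 3 was the histone gene HIST2H2BE, at 259.9, 146 and 123 CPM, a log2 difference of -0.90. Of 424 list members tested, 4 passed (0.943%), near the 1.18% over all genes tested. They were MYD88, KLF6, a stress-responsive transcription factor, at 13.9, 27.8 and 32.5 CPM, the mitotic kinase PLK1 at 78.5, 127 and 125 CPM and S100A10. None of these 4, nor RPS27 or HIST2H2BE, passed under all 11 settings of the fit, although each log2 difference kept its sign. Among 80 ribosomal protein genes tested, a group formed after the most variable genes had been seen, 12 passed and 58 were higher in replicates 2 and 3, with a median log2 difference of 0.13 against near 0 over all genes. Of the 137 genes, 35 (25.5%) had a pseudogene named after them in GENCODE, against 12.4% of all genes tested, and their part in the difference was not tested.

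The same split was looked for in the maltonis-treated libraries, which share no library with the untreated ones and carry the same codes. All 20 of the most variable symbols of the untreated cells were lowest in replicate 1 there too, against 41.3% of the 9899 symbols. RPS16 differed by 1.97 on the log2 scale between replicates 2 and 3 and replicate 1 of the maltonis libraries and MYD88 by 1.46, both smaller than in the untreated ones, and PLK1 by -0.13. The direction was the same for 128 of the 137 genes (93.4%), against 65.2% of all 11290 genes tested in both. The same fit, again with 1 library in an arm, called 1638 of 11929 genes there (13.7%), 725 higher and 913 lower, or 141 and 144 by DESeq2, and these counts are likewise a description. With 1 library per group under the first code, that code and the single library cannot be told apart within a group.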

How the data were processed

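The deposited values are whole-number counts of reads per gene symbol, 1 list for each library, which the authors did not normalize. The submitters' processing notes name TopHat, Bowtie2, HTSeq and hg19; versions, the annotation and the strand setting are not given in the sources used here, so overlapping, antisense and paralogous genes are uncertain. Replicate libraries differed by more than sampling noise (chi-square per degree of freedom of 10.8 to 33.1) and each counted as a sample. CPM was scaled by library total. RPKM used the exons of GENCODE 29 transcripts linked to RefSeq (found for 21704 of 23368 symbols, 20195 by symbol and 1509 by a synonym); this length was chosen after the data were known. Tests used edgeR 4.0.16 in R 4.3.3 with TMM, tested on simulated data first; alternatives included DESeq2 1.42.0. Tables used Python 3.11.15 with pandas 2.3.3. Promoters come from RefSeq (GRCh38.p14), matched for 15666 symbols. The members and the gene lists were chosen with earlier results of these data known. Named genes are list members, the 15 highest by CPM and by RPKM, the 20 largest SDs, the 5 largest called differences in each direction, and genes said to be looked up later. Values are mean ± SD over 3 libraries unless given per library. Some list members and 2 of the most variable symbols are not reported here by name.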

Additional observations from a re-analysis of the deposited data

How the results depend on the processing

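No paired analysis was possible because the comparison is between replicate numbers of 1 group. The 2678 high symbols became 4877 or 1078 with a limit of 50 or 200 CPM, and 5949 with a limit of 10 RPKM (then 5671 middle symbols), or 4776 with the lengths of all exons, an alternative chosen after seeing the data. The other counts of symbols per class, including those with a library left out, stayed within 1.5 times of the values given, and so did the promoter values. Counts within lists moved more often: 54 of 540 did, 48 of them with another limit of the high class (no coagulation gene was high at 100 CPM and 5 were at 10 RPKM). The other 6 were counts at 0 with a library left out: 4 against 2 surface antigens and 1 against 0 coagulation genes without replicate 2, and 5 against 3 neutrophil genes, 5 against 3 monocyte markers, 2 against 1 apoptosis genes and 2 against 1 retinoid genes without replicate 3. Of the 676 list members, 108 changed class with 10 RPKM and none with TMM or DESeq2 scaling. The number of the 20 most variable symbols kept lay between 14 and 19 under other settings, and between 0 (without replicate 1) and 17 with a library left out.

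The numbers of genes higher and lower in replicates 2 and 3 depended on nearly every choice. Against 136 and 1, they were 362 and 14 with DESeq2, 638 and 74 with the likelihood ratio test, 17 and 0 with DESeq2 size factors, 21 and 0 with library totals, 56 and 0 with filterByExpr, 716 and 87 without a filter, and 426 and 48 with the spread pooled over 6 libraries. Leaving out replicate 2 or 3, with a spread pooled with the maltonis libraries that the lone library is assumed to share, gave between 960 and 1307 higher and between 456 and 1173 lower genes; without replicate 1 there is no such comparison. In the maltonis libraries, 725 and 913 became 141 and 144 with DESeq2. The cause of these changes was not tested.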
